A study of Zea mays with 18 samples.

Results

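The 3 flavonoid genes described here were followed across all 18 maize leaf libraries of a cold experiment. They are white pollen1 (Zm00001d007403), red aleurone1 (Zm00001d017077) and flavone synthase1 (Zm00001d047452), 3 of the 50118 genes in the deposited table. They were selected on their measured levels, which were lower in the zmzfp69 mutant than in the control in these same libraries, so their differences between genotypes are given as a description, with no test. The control was the maize inbred line B73. The other line, zmzfp69, is named for a zinc finger transcription factor gene. Some label fields call it a mutant and others a knock-down. By the titles its background is B73, and the labels name no allele. Both lines were raised at 25 °C under days of 16 h light until seedlings had 3 leaves, and leaves were taken after 0, 24 or 48 h at 4 °C. Each of the 6 groups had 3 libraries, described as biological replicates of 50 seedlings. The 0 h groups were taken as sampled before the cold, although their treatment field also reads 4 °C. No library analysed here came from plants kept warm for 24 or 48 h, so cold and elapsed time cannot be told apart.

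Flavonoids are built from a phenylpropanoid and malonyl units. Chalcone synthase makes naringenin chalcone and commits carbon to the pathway, and chalcone isomerase closes the ring to give naringenin. Naringenin then feeds flavones, flavonols and anthocyanins, which screen leaves from light and often colour them when plants are chilled. white pollen1 encodes one of the maize chalcone synthases, named for the unpigmented pollen of plants that lack it together with its copy colorless2. red aleurone1 encodes flavonoid 3'-hydroxylase, which adds a hydroxyl group to the B ring; without it, purple kernels turn red. The deposited description of flavone synthase1 names the rice cytochrome P450 93G2, which in rice hydroxylates flavanones on the way to C-glycosylated flavones.

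Recovered reads numbered 14.8 to 19.1 M per library. The gene ZmZFP69 was not found by name in the table (0 matches), so the genotype labels were not checked by its level. On the first principal component, which held 42.2% of the variance, mutant 24 h replicate 2 lay at -68.6 and the other libraries of its group at 25.6 and 40.6. B73 48 h replicate 1 lay at 106, and the others of its group at 46.6 and 45.3. These 2 libraries are the ones treated below as standing apart. B73 24 h replicate 1 also lay away from its group, at -7.53 against 42.8 and 21.9, but was left out only singly. The leaf identity was visible in 56 listed photosynthesis genes, of which 40 passed the filter on low values, with summed levels of 7797 to 64183 FPKM per library. FPKM scales the fragments of a gene by its length and by the library, here with library factors that even out the level of the typical gene. All 3 genes passed the filter of 1 FPKM in at least 3 libraries, with 23141 genes tested in all. In such bulk leaf samples, fewer cells that express a gene and less RNA per cell cannot be told apart.

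white pollen1 lies on the minus strand of chromosome 2 from 230953342 to 230957070, with a counted length of 1560 bases, in the coordinates of the deposited table. In B73 at 0 h it stood at 14.6, 16.0 and 43.1 FPKM in replicates 1, 2 and 3, on 543, 616 and 1156 reads. In the mutant at 0 h it stood at 0.0294, 0.243 and 0.679 FPKM, on 1, 7 and 23 reads. The groups did not overlap, and the B73 mean of 24.6 ± 16.0 FPKM (SD, n = 3 here and throughout) was 77.5 times the mutant mean of 0.317 ± 0.331 FPKM. Single libraries moved this ratio to 48.3 (without B73 replicate 3) and 180.5 (without mutant replicate 3). At 24 h the B73 libraries spread widely, at 0.207, 4.43 and 20.8 FPKM. None of the 3 mutant libraries held a read at 24 h, so the B73 mean of 8.47 ± 10.9 FPKM was at least 86.6-fold higher, with the mutant set at a floor of 3 reads per library. Without B73 replicate 3, the highest of the 24 h libraries, the B73 mean was 2.32 FPKM. At 48 h the order turned. The B73 libraries held 0.371, 0.721 and 0.105 FPKM and the mutant libraries 1.64, 1.29 and 0.191 FPKM. These groups overlapped, and the mutant mean of 1.04 ± 0.757 FPKM was 2.61 times the B73 mean of 0.399 ± 0.309 FPKM, on 59 against 31 reads, or 4.37 times it without B73 replicate 2. Among the tested genes, white pollen1 ranked at the 87.0th percentile of level in B73 at 0 h and at the 0.653th in the mutant at 24 h.

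red aleurone1 lies on the minus strand of chromosome 5 from 184494219 to 184496209, with a counted length of 1811 bases. Before the cold it stood at 49.5, 48.3 and 66.9 FPKM in the B73 libraries and at 6.74, 2.39 and 0.864 FPKM in the mutant libraries. Every B73 library was far above every mutant library, and the B73 mean of 54.9 ± 10.4 FPKM was 16.5 times the mutant mean of 3.33 ± 3.05 FPKM, or 33.7 times it without mutant replicate 1. At 24 h the B73 libraries held 1.45, 15.01 and 27.8 FPKM and the mutant libraries 0.775, 0.212 and 0.895 FPKM. The groups again did not overlap, although B73 replicate 1 came close to the mutant, and the means of 14.7 ± 13.2 and 0.628 ± 0.365 FPKM differed 23.5-fold, or 13.1-fold without B73 replicate 3. At 48 h the B73 libraries held 5.21, 3.75 and 2.54 FPKM and the mutant libraries 7.61, 7.44 and 3.45 FPKM. Replicate 3 was the lowest library of both lines, the groups overlapped, and the mutant mean of 6.17 ± 2.35 FPKM was 1.61 times the B73 mean of 3.83 ± 1.34 FPKM.

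flavone synthase1 lies on the plus strand of chromosome 9 from 130652403 to 130653974, with a counted length of 1572 bases. At 0 h it stood at 21.9, 22.8 and 45.6 FPKM in B73 and at 3.62, 2.86 and 4.80 FPKM in the mutant. The groups did not overlap, and the B73 mean of 30.1 ± 13.4 FPKM was 8.01 times the mutant mean of 3.76 ± 0.981 FPKM. At 24 h the B73 libraries held 1.79, 8.37 and 13.2 FPKM and the mutant libraries 4.40, 2.30 and 2.71 FPKM. Here the groups overlapped, because B73 replicate 1 lay below all 3 mutant libraries; the B73 mean of 7.79 ± 5.72 FPKM was 2.48 times the mutant mean of 3.14 ± 1.11 FPKM, or 1.62 times it without B73 replicate 3. At 48 h the B73 libraries held 19.4, 11.9 and 13.0 FPKM and the mutant libraries 17.7, 18.2 and 12.2 FPKM. The groups were interleaved, with means of 14.8 ± 4.06 FPKM in B73 and 16.0 ± 3.34 FPKM in the mutant.

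**Figure D1:**
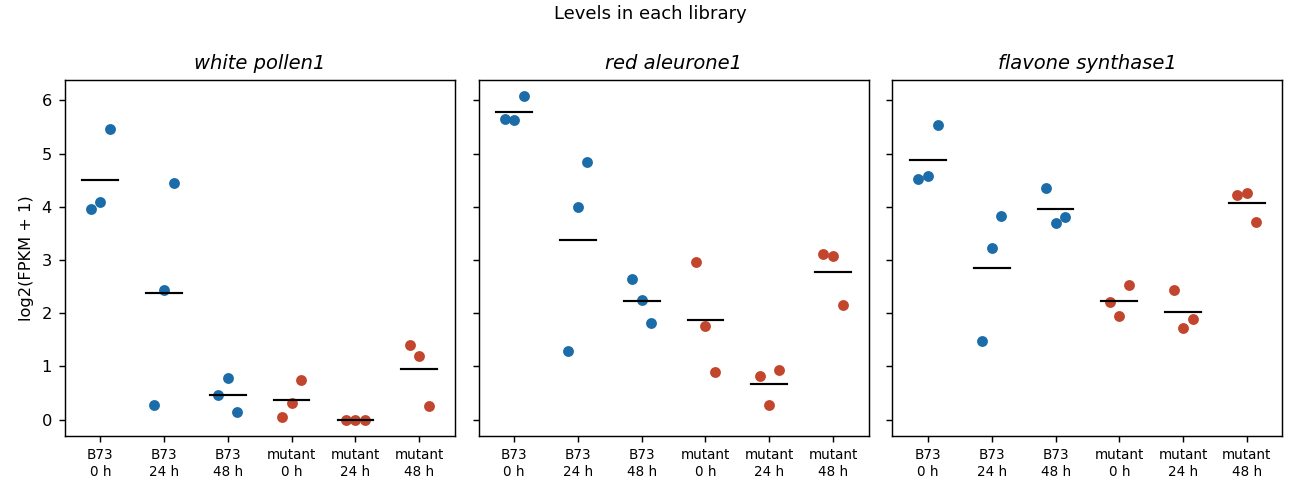
Levels of white pollen1, red aleurone1 and flavone synthase1 in each of the 18 libraries, as log2(FPKM + 1), by genotype and time at 4 °C; points are libraries and bars are group means (n = 3). B73 libraries (blue) lie above all mutant libraries (red) at 0 h for each gene, and the lines overlap at 48 h.

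Low in the mutant therefore describes 0 h for 3 of 3 genes, 24 h for white pollen1 and red aleurone1 without overlap, and 48 h for none of them (0 of 3), where all the mutant means were higher (the sign for flavone synthase1 turned in 2 of 25 settings, library-total scaling among them). As a background, 0.0519% of tested genes were called lower in the mutant at 0 h, 0.199% at 24 h and 0.0778% at 48 h (limma, adjusted p under 0.05). These calls are a different measure from the overlap of libraries used for the 3 genes. The share of all tested genes without overlap is not given here, so the shares do not show how rare the 3 genes are. The shares called higher were 0.16, 0.212 and 0.255%, and averaged over the times 0.259% were lower and 0.393% higher. On the log2(FPKM + 1) scale, which understates the differences of low genes, the mutant minus B73 difference at 0, 24 and 48 h was -4.14, -2.39 and 0.49 for white pollen1. It was -3.92, -2.70 and 0.54 for red aleurone1, and -2.65, -0.83 and 0.12 for flavone synthase1. Averaged over the times, the differences were -2.01, -2.03 and -1.12 in the same order of genes. The levels of white pollen1 and red aleurone1 fell into 1 order of group means: B73 at 0 h, B73 at 24 h, mutant at 48 h, B73 at 48 h, mutant at 0 h and mutant at 24 h. Neighbours in this order overlapped, except the 2 lowest groups of white pollen1 and the 2 highest groups of red aleurone1. flavone synthase1 had B73 at 0 h highest, clear of the mutant at 48 h, followed by B73 at 48 h, B73 at 24 h, the mutant at 0 h and the mutant at 24 h, and these later neighbours overlapped.

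In B73 each of the 3 genes was called lower at 1 or both times in the cold. The B73 libraries of 0 h enter both these changes and the genotype difference by which the genes had been chosen, so the changes are not independent of that choice. red aleurone1 fell by 24 h (log2 change -2.41, SE 0.68, adjusted p = 0.0379, limma on log2(FPKM + 1) over all tested genes with Benjamini-Hochberg adjustment). flavone synthase1 also fell by 24 h (log2 change -2.03, SE 0.47, adjusted p = 0.0138, limma). white pollen1 had a log2 change of -2.12 (SE 0.71) and missed the threshold with an adjusted p of 0.0747 (limma). Thus 2 of the 3 genes were called lower at 24 h, against 4.09% of all tested genes. By 48 h, white pollen1 had fallen by 4.04 on the log2 scale (SE 0.71, adjusted p = 0.00132, limma) and red aleurone1 by 3.55 (SE 0.68, adjusted p = 0.00225, limma). flavone synthase1 at 48 h had a log2 change of -0.93 and did not pass (SE 0.47, adjusted p = 0.165, limma). Here 2 of 3 genes were called lower, against 10.5% of tested genes.

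The 24 h values of B73 rest on single libraries. B73 24 h replicate 1 was the lowest of its group for each of the 3 genes, and without it the change of red aleurone1 was -1.37 (adjusted p = 0.109, limma), that of flavone synthase1 -1.35 and that of white pollen1 -1.06. The call of red aleurone1 at 24 h was also lost without any 1 of the B73 0 h libraries or without B73 24 h replicate 2, and that of flavone synthase1 without B73 0 h replicate 3 (log2 change -1.70, adjusted p = 0.0571, limma). Without B73 24 h replicate 3, white pollen1 passed at 24 h (log2 change -3.15, adjusted p = 0.00622, limma). The 48 h falls of white pollen1 and red aleurone1 kept their calls in every such omission, at -4.31 to -3.57 and -3.75 to -3.35. Without the 2 libraries that stood apart on the first component, each of the 12 cold changes of the genes kept its direction and its side of the threshold. Neither library is part of the B73 changes at 24 h or the mutant changes at 48 h, so those log2 values could not move.

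In the mutant the starting levels were low. The mutant libraries of 0 h likewise enter the genotype difference behind the choice of genes. white pollen1 went from 1, 7 and 23 reads at 0 h to 0 reads in all 3 libraries at 24 h, and its log2 change of -0.37 did not pass (SE 0.71, adjusted p = 0.791, limma). red aleurone1 changed by -1.19 on the log2 scale at 24 h (SE 0.68) and flavone synthase1 by -0.22 (SE 0.47), and neither passed (adjusted p = 0.282 and 0.818, limma). With limma-voom on recovered reads the adjusted p was 0.423, 0.350 and 0.794 for white pollen1, red aleurone1 and flavone synthase1. In this comparison 9.58% of tested genes were called in the main limma fit, and 1991 genes with limma-voom. By 48 h flavone synthase1 rose, from 3.76 ± 0.981 to 16.0 ± 3.34 FPKM (log2 change 1.84, SE 0.47, adjusted p = 0.00725, limma). The 3 libraries of 48 h all lay above the 3 of 0 h, and the call held with each library left out, at 1.70 to 2.01. red aleurone1 had a log2 change of 0.91 at 48 h (SE 0.68, adjusted p = 0.316, limma) and white pollen1 of 0.58 (SE 0.71, adjusted p = 0.549, limma), and neither passed. So 1 of 3 genes was called higher, against 18.5% of tested genes. At 48 h the change in the mutant exceeded that in B73 by 4.63 on the log2 scale for white pollen1, by 4.46 for red aleurone1 and by 2.77 for flavone synthase1, differences that follow from the genotype contrasts and were not tested.

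**Figure D2:**
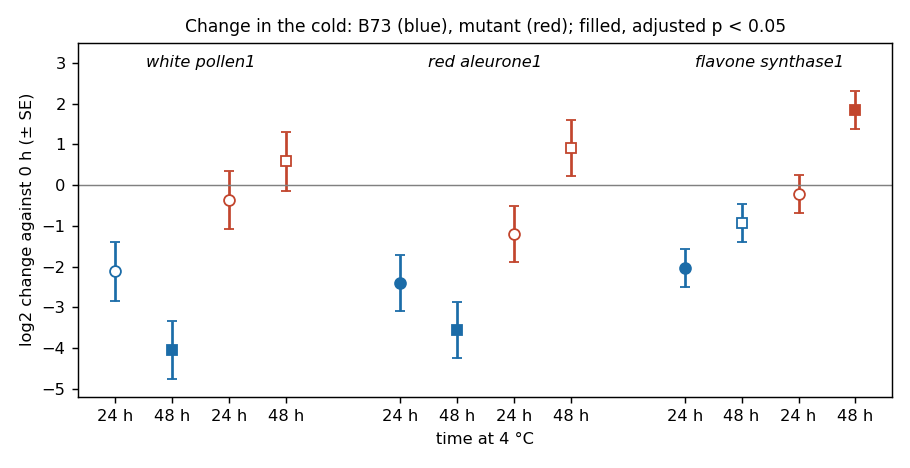
Log2 change against 0 h of the 3 genes after 24 h (circles) and 48 h (squares) at 4 °C in B73 (blue) and the mutant (red); bars are ± SE from limma and filled symbols passed an adjusted p of 0.05. The falls in B73 reach -4.04 for white pollen1, and flavone synthase1 in the mutant, at 1.84, is the filled symbol above 0.

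The maize chalcone synthases white pollen1 and colorless2 are near-identical copies, and reads could have been split between them, so the level of each is uncertain. colorless2 (Zm00001d052673), the more abundant copy, stood at 98.7, 89.9 and 180 FPKM in B73 and at 15.4, 34.7 and 56.7 FPKM in the mutant at 0 h. At 24 h it stood at 18.3, 95.3 and 195 FPKM in B73 and at 13.2, 4.81 and 7.09 FPKM in the mutant. Neither pair of groups overlapped, and at both times B73 replicate 3 was the highest library, as for white pollen1. At 48 h the libraries held 32.6, 23.6 and 18.2 FPKM in B73 and 52.4, 51.7 and 23.2 FPKM in the mutant, and the groups overlapped. colorless2 fell in B73 by 48 h (log2 change -2.23, SE 0.69, adjusted p = 0.0285, limma), a call that was lost without any 1 of the B73 libraries of 0 or 48 h (-2.44 to -1.92, highest adjusted p = 0.0925, limma). Its genotype difference did not pass at any time, with a log2 difference of -1.87 at 0 h (adjusted p = 0.724, limma) and of -3.03 at 24 h (adjusted p = 0.0716, limma). Without B73 24 h replicate 1 the difference at 24 h was -3.97 and passed (adjusted p = 0.00541, limma). The sum of white pollen1 and colorless2 covers the 2 chalcone synthase genes that were tested, of 3 listed. white pollen1 made up 15.8 ± 3.27% of this summed FPKM in B73 at 0 h, 5.06 ± 4.29% at 24 h and 1.55 ± 1.25% at 48 h. In the mutant its share was 0.690 ± 0.496% at 0 h, 0 at 24 h and 2.10 ± 1.15% at 48 h. The share in B73 at 0 h, between 12.9 and 19.3%, lay above that in every other group. As white pollen1 was chosen for low levels in the mutant in these libraries, its lower share there is not independent of that choice.

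The other genes of the pathway were taken from lists by name or protein description, which held 95 flavonoid genes, 54 of them tested. Membership rests on these words alone, and some listed genes may act outside the pathway, such as Zm00001d018278, described as a fatty-acid-binding protein. Between the genotypes, 0 of the 51 others passed at 0, 24 or 48 h or averaged over the times with limma, and 0 with limma-voom, against 0.212, 0.411, 0.333 and 0.653% of all tested genes. At an unadjusted p under 0.05 there were 8, 9, 11 and 12 of them, or 15.7, 17.6, 21.6 and 23.5%, beside 5.25, 10.6, 14.0 and 10.5% of all tested genes. Their median log2 difference was -0.01 at 0 h, -0.40 at 24 h and 0.41 at 48 h, beside 0.03, -0.02 and 0.04 over all tested genes. At 0 h 27 were below 0 and 23 above it. At 24 h 38 of the 51 were below 0, and at 48 h 35 were above it. Without B73 24 h replicate 1, 4 of them were called lower in the mutant at 24 h, when 121 of all tested genes were called lower (0.523%) in place of 46. These were colorless2, the chalcone isomerase-like gene Zm00001d044683 (log2 difference -4.85), anthocyaninless1 (-4.20), which encodes dihydroflavonol 4-reductase, and the flavonoid 3'-hydroxylase-like gene Zm00001d050955 (-1.70).

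**Figure D3:**
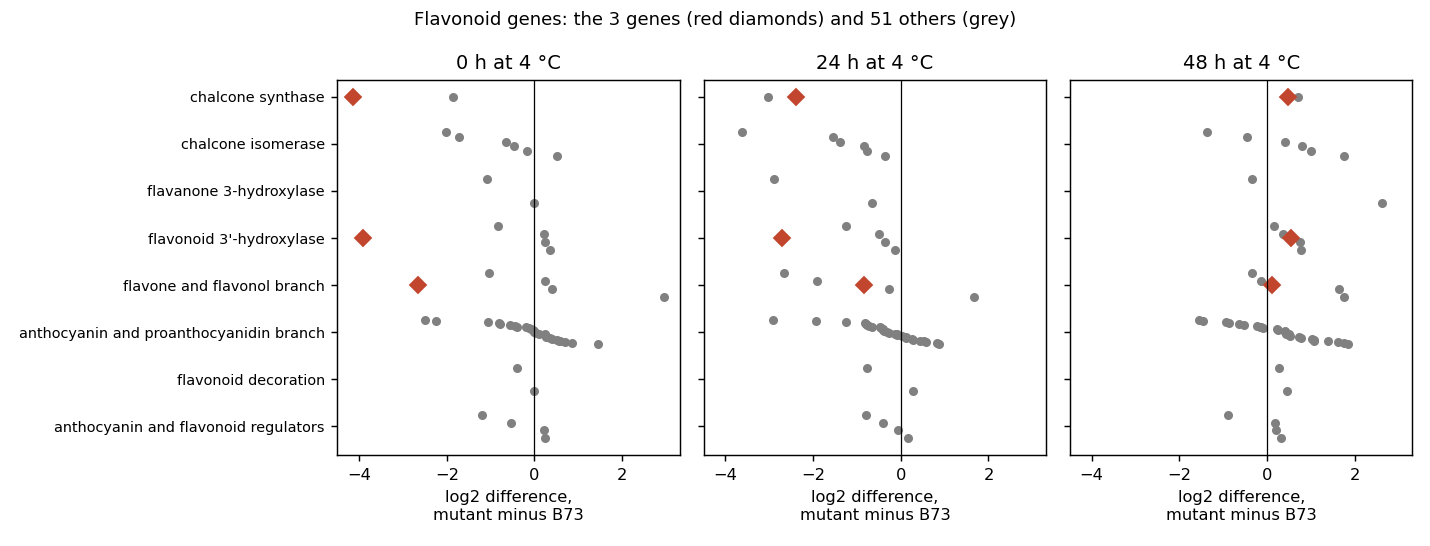
Log2 difference, mutant minus B73, of the 54 tested flavonoid genes at 0, 24 and 48 h, by step of the pathway; red diamonds are white pollen1, red aleurone1 and flavone synthase1, which had been chosen for low values, and grey points are the 51 others. The diamonds lie at the left edge at 0 h and among the other genes at 48 h.

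By 48 h in the cold, flavonoid genes of B73 fell more often than they rose. At 48 h 16 of the 54 tested were lower and 6 higher (22 and 5 with library-total scaling), which is 40.7% called against 23.2% of all tested genes, with a median log2 change of -0.50 against -0.03. The 16 included white pollen1 and red aleurone1, and of the 51 others 20 were called. Of the 5 tested flavonoid 3'-hydroxylase genes, red aleurone1 among them, 5 were lower. The largest fall of the 4 others was that of Zm00001d047424, described as a flavonoid 3',5'-hydroxylase (log2 change -2.35, adjusted p = 0.00746, limma). chalcone flavanone isomerase1, which closes the ring, fell from 46.6 to 5.54 FPKM (log2 change -2.88, adjusted p = 0.0319, limma). flavanone 3-hydroxylase1, at the entry to flavonols and anthocyanins, fell from 35.5 to 1.43 FPKM (log2 change -3.74, adjusted p = 0.0225, limma). The largest fall of the anthocyanin and proanthocyanidin list was that of Zm00001d047504 (log2 change -2.81, adjusted p = 0.00037, limma). Among the later anthocyanin genes, anthocyaninless1 fell (log2 change -2.72, adjusted p = 0.0417, limma) and so did bronze1, which glucosylates anthocyanidins (-1.58, adjusted p = 0.0143, limma). Of the regulators, the bHLH gene colored1 fell (log2 change -1.84, adjusted p = 0.0171, limma), as did the WD40 gene pale aleurone color1 (-1.61, adjusted p = 0.000261, limma). Rises were led by the glucosyltransferase-like gene Zm00001d044106 (log2 change 3.64, adjusted p = 0.00193, limma). Next came Zm00001d001927 of the flavanone 3-hydroxylase list, which had 0 reads in B73 at 0 h and 8.74 ± 6.61 FPKM at 48 h (adjusted p = 0.00339, limma), and Zm00001d018278, described as a fatty-acid-binding protein of the chalcone isomerase fold (2.97, adjusted p = 0.00144, limma). With 1 library left out, the 48 h call was kept in 18 of 18 omissions by pale aleurone color1, Zm00001d047424 and the 3 genes named as higher. It was lost in 9 omissions for anthocyaninless1 (highest adjusted p = 0.131, limma), among them each B73 library of 0 and 48 h. chalcone flavanone isomerase1 lost it without any 1 of the B73 0 h libraries and without B73 48 h replicate 1 or 3 (highest adjusted p = 0.104, limma). flavanone 3-hydroxylase1 lost it without B73 0 h replicate 1 or B73 48 h replicate 1 or 3 (highest adjusted p = 0.0951, limma). bronze1 (-1.17) and colored1 (-1.15) lost it without B73 0 h replicate 1, and colored1 also without B73 48 h replicate 1. Without the 2 libraries that stood apart, 4 were higher and 8 lower at 48 h, and colorless2, chalcone flavanone isomerase1, flavanone 3-hydroxylase1, anthocyaninless1 and colored1 did not pass. With limma-voom chalcone flavanone isomerase1, flavanone 3-hydroxylase1 and anthocyaninless1 did not pass, and 17 flavonoid genes were called in all. Epidermis and cuticle markers moved with these falls in B73, from a summed level of 309 to 760 FPKM at 0 h to 140 to 249 FPKM at 48 h, without overlap. The sum of vasculature markers was 401 to 419 FPKM at 0 h and 873 to 911 FPKM at 48 h, and the part of either in the changes was not tested. At 24 h in B73, 3 of the 54 were lower and 1 higher (8 and 1 with library-total scaling), 7.41% called against 9.35% of all tested genes (5.26% higher). The lower genes included red aleurone1 and flavone synthase1, which had been chosen with the B73 0 h libraries. Of the 51 others, 2 were called: Zm00001d047504, which was lower, and Zm00001d018278, which was higher. The sums of vasculature markers (580 to 1027 FPKM) and of meristem and young tissue markers (1048 to 1506 FPKM) at 24 h in B73 likewise did not overlap those of 0 h, and their part was not tested.

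In the mutant, 6 of the 54 were lower and 0 higher at 24 h, 11.1% called against 9.58% of all tested genes, or 5.82% lower (limma). At 48 h 10 were higher and 9 lower, a balance that turned to 7 and 13 when libraries were scaled by their totals. This was 35.2% called against 36.5%, with a median log2 change of 0.05. flavone synthase1 was among the 10, with anthocyaninless2, which encodes leucoanthocyanidin dioxygenase and had a log2 change of 2.04 (adjusted p = 0.0266, limma). Its call was lost without mutant 0 h replicate 1 or 3 or mutant 48 h replicate 3 (lowest change 1.48) and with library-total scaling. colorless2 had a log2 change of 0.34 at 48 h (adjusted p = 0.728, limma), chalcone flavanone isomerase1 of -0.14 (0.918) and flavanone 3-hydroxylase1 of -0.03 (0.989), and none of them passed. Of the flavonoid genes called at 48 h, 4 of the 6 that rose in B73 were among the 10 that rose in the mutant, and 6 of the 16 that fell in B73 were among the 9 that fell in the mutant; pale aleurone color1 was one that fell in both. These are 66.7 and 37.5% of the B73 lists and 40.0 and 66.7% of the mutant lists. Over all tested genes the shared calls were 82.3 and 70.3% of the B73 lists and 56.7 and 41.0% of the mutant lists. Opposite calls numbered 0 flavonoid genes and 6 of all tested genes. The difference between the genotypes in the 48 h change passed for 0 of the 51 others and for 2 of all tested genes with limma. At an unadjusted p under 0.05 it was 11 of the 51 (21.6%), beside 7.45% of all tested genes. From 0 to 48 h in the mutant, the summed level of meristem and young tissue markers went from 2130 to 2210 FPKM to 2992 to 4063 FPKM, and that of root markers from 54.7 to 75.2 FPKM to 90.8 to 124.8 FPKM. Their part in these changes was not tested.

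**Figure D4:**
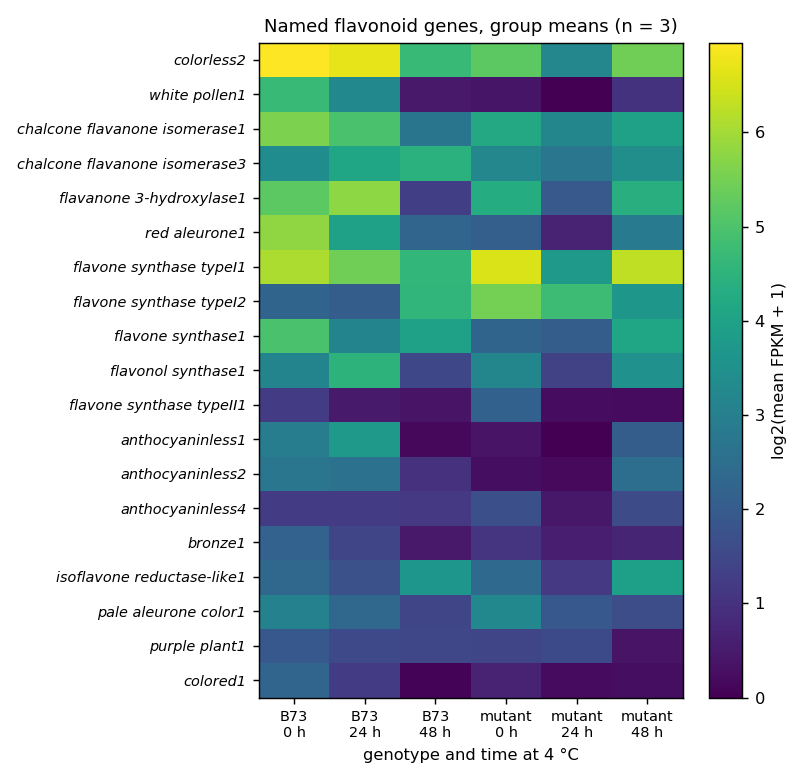
Group means of 19 flavonoid genes with a maize gene name (any name containing Helmintho left out), as log2(mean FPKM + 1), in the order of the pathway (n = 3 libraries per group). white pollen1 and red aleurone1 are brightest in B73 at 0 h and darkest in the mutant at 24 h, and colorless2 stays above white pollen1 in every group.

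The genes whose levels ran most like those of the 3 were found by Pearson's r of log2(FPKM + 1) over the 18 libraries, which share 6 groups and are not independent points. As the 3 genes were selected together for low levels in the mutant in these libraries, high values of r among them restate that choice. white pollen1 was nearest to red aleurone1 (r = 0.92), and both were each other's nearest among all tested genes. Next to white pollen1 came Zm00001d050955 (r = 0.88), starch phosphorylase1 (0.87), colorless2 (0.87) and a glutaredoxin gene, Zm00001d034857 (0.87). Next to red aleurone1 came Zm00001d045519, an oligopeptide transporter-like gene (r = 0.87), Zm00001d011901 (0.85), which encodes a pentatricopeptide repeat protein, Zm00001d024301 (0.85), described as a purine biosynthesis protein, and salmon silk2 (0.85), described as a rhamnosyltransferase. salmon silk2 had means of 72.7, 61.8 and 10.02 FPKM in B73 and 5.41, 5.16 and 12.2 FPKM in the mutant at 0, 24 and 48 h. flavone synthase1 ran closest to salmon silks1 (r = 0.92), described as a rhamnose synthase, with means of 11.2, 4.98 and 3.06 FPKM in B73 and 0.895, 0.544 and 6.26 FPKM in the mutant. It was followed by Zm00001d003044 (r = 0.88), a beta-glucosidase-like gene, cytochrome P450 13 (0.85), early light inducible protein1 (0.84) and Zm00001d049910 (0.82), described as a transporter of the DETOXIFICATION family. salmon silk2 and salmon silks1 did not match the words of the flavonoid lists. They are therefore not in the pathway counts, which does not show that they act outside the pathway. flavone synthase1 itself correlated with red aleurone1 at r = 0.79 and with white pollen1 at r = 0.70. Within groups, after the group means were removed, r was 0.89 between white pollen1 and flavone synthase1, 0.74 between white pollen1 and red aleurone1 and 0.76 between red aleurone1 and flavone synthase1. A widely spread group weighs on these values. In B73 at 24 h, replicate 1 was lowest and replicate 3 highest for each gene. The range was 0.207 to 20.8 FPKM for white pollen1, 1.45 to 27.8 for red aleurone1 and 1.79 to 13.2 for flavone synthase1. The r without this group was not computed. Pooled over the groups, the libraries of a group that were high for 1 gene tended to be high for the others. This did not hold in each group. In the mutant at 0 h, replicates 1, 2 and 3 held 0.0294, 0.243 and 0.679 FPKM of white pollen1. The same libraries held 6.74, 2.39 and 0.864 FPKM of red aleurone1, in the opposite order.

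The genes next to the 3 on the chromosome were compared in the average over the times. Of the 10 nearest tested genes on either side of white pollen1, 1 of 20 was called, against 0.653% of tested genes: Zm00001d007405, which was higher in the mutant by 0.91 on the log2 scale. The 20 around red aleurone1 had differences between -0.56 and 0.59, and the 20 around flavone synthase1 between -0.24 and 0.24. Marker lists of other cells were compared between the genotypes at each time. Of 41 listed epidermis and cuticle genes, 27 were tested, and their summed level at 0 h was 309 to 760 FPKM in B73 and 256 to 752 FPKM in the mutant. At 48 h it was lower in B73 than in all mutant libraries, whose sums were 259 to 353 FPKM. Of 163 listed anther and pollen genes, 37 were tested and 74 were at 0 in every library, and their sum at 0 h was 209 to 642 FPKM in B73 and 259 to 466 FPKM in the mutant, overlapping as at 24 and 48 h. Meristem and young tissue markers (138 listed, 64 tested, 43 at 0 in every library) were higher in the mutant without overlap at each time. Their sum at 0 h was 1689 to 2064 FPKM in B73 and 2130 to 2210 FPKM in the mutant. At 24 h it was 1048 to 1506 FPKM against 1704 to 3026 FPKM, and at 48 h 1343 to 2798 FPKM against 2992 to 4063 FPKM. Vasculature markers (47 listed, 24 tested, 7 at 0) were lower in the mutant at 48 h, at 600.0 to 752 FPKM, and overlapped at 0 and 24 h. Root markers (29 listed, 9 tested, 11 at 0) overlapped at each time. The part of cell composition in the differences of the 3 genes was not tested.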

How the data were processed

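Poly(A) RNA from leaves was sequenced from directional libraries, per the labels' protocols. The authors deposited FPKM values, made with HISAT2 2.0.5, fastp, DESeq2 1.20.0 and featureCounts 1.5.0-p3 per the submitters' processing notes. No genome build, strand use in counting or other setting is given in these notes. Each FPKM was a whole multiple of what 1 read is worth (100% of values within 0.01 reads), which gave the recovered reads of 14.8 to 19.1 M per library. Intervals and floors cover counting error only. Groups came from the titles; the description field of mutant replicates 2 and 3 at 24 and 48 h reads 0 h and was not used. The lowest chi-square per gene between replicates was 40.8, far above sampling noise, so each counted once.

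The 23141 genes that reached 1 FPKM in 3 or more libraries were tested on log2(FPKM + 1) with limma 3.58.1 in R 4.3.3 (lmFit and eBayes with trend, 12 residual degrees of freedom, prior 3.54), all 6 groups in 1 fit. Benjamini-Hochberg adjustment ran over all tested genes of a comparison, and a gene with an adjusted p under 0.05 was called. The count model foreseen was not used on FPKM. The script was tested on simulated data. Tables and plots used Python 3.11.15. The genes and lists were chosen with earlier results of these data known. Gene names come from the deposited table. Genes named are the 3 genes, called genes of each pathway list (up to 4 per role), the 5 nearest by correlation that have a name or description (a gene with neither ranked above salmon silk2) and the most abundant copy in the family. Called genes were to be named by size of change, but this order was not kept throughout. Some with a maize name, such as bronze1 and anthocyaninless2, were named while genes with larger changes were not. Flavonoid genes named for a value that did not pass, and those called without 1 library, were chosen after their values were seen. Alternatives were a pseudocount of 0.1, no filter, library-total scaling, a block for replicate numbers, limma-voom, only the libraries compared, and libraries left out. Replicate numbers were not used to pair libraries in the main fit: over 45 same-numbered pairs r was -0.50 to 0.56, and 14 were over 0.1. Between B73 and the mutant at 0 h, r was -0.14, 0.56 and 0.52 for replicates 1, 2 and 3. A batch shared by such libraries was not tested.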

Additional observations from a re-analysis of the deposited data

Results flagged for a closer look

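For flavone synthase1, every B73 library was lower at 48 h than at 0 h and every mutant library higher, and the change in the mutant exceeded that in B73 by 2.77 on the log2(FPKM + 1) scale. The rise in the mutant passed the threshold (adjusted p = 0.00725, limma), and the B73 change of -0.93 did not (adjusted p = 0.165, limma). The difference between them was not tested, since it contains the genotype difference by which the gene had been chosen.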

How the results depend on the processing

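Across 25 settings, the differences between genotypes kept their sign at each time for each of the 3 genes, except flavone synthase1 at 48 h in 2 of them (-0.17 to 0.32). As the genes had been chosen on their genotype difference, its steady sign adds no support. Many of these settings could not move it: no filter, the replicate block, only the libraries compared, and omissions of a library from another time. No cold change of the 3 genes reversed. At 24 h in B73, red aleurone1 missed the threshold with a pseudocount of 0.1 (-2.65), no filter, the replicate block or only the libraries compared (-2.41 in each; adjusted p = 0.0729, 0.0655, 0.0557 and 0.148, limma), and flavone synthase1 with only the libraries compared (-2.03, adjusted p = 0.107, limma). The causes were not tested, except that the last setting uses fewer samples. Library-total scaling moved the median change of all genes from -0.02 to -0.31 and from -0.03 to -0.45 in B73 (24 and 48 h), from -0.02 to -0.17 and from -0.03 to -0.64 in the mutant, and that between genotypes from -0.02 to 0.09 at 24 h and from 0.04 to -0.17 at 48 h. With it white pollen1 passed at 24 h (-2.54, adjusted p = 0.0193, limma) and flavone synthase1 at 48 h in B73 (-1.47, adjusted p = 0.0145, limma). It turned the higher and lower calls to 1104 and 1925, 1902 and 4971, 813 and 1813, and 2313 and 8373 genes in the same 4 cold comparisons, from 1218 and 946, 2943 and 2431, 869 and 1347, and 4274 and 4164. Between genotypes at 24 h it gave 49 and 28, from 49 and 46, and at 0 and 48 h 54 and 17 and 25 and 6, from 37 and 12 and 59 and 18. Flavonoid genes called were 9 (1 higher and 8 lower) with it and 2 with only the libraries compared at 24 h in B73, from 4. They were 12 without both libraries that stood apart at 48 h in B73, from 22, and 3 with no filter, limma-voom or only the libraries compared at 24 h in the mutant, from 6. Genes called at 24 h in the mutant (2216) were 587 with only the libraries compared and 3752 without both libraries. Between genotypes they were 31 with the pseudocount, 112 with no filter and 18 with only the libraries compared at 0 h (49). They were 52 with limma-voom, 1 with only the libraries compared and 50 without both libraries at 24 h (95), and 31 with library-total scaling, 23, 4 and 317 in that order of settings at 48 h (77). With 1 library left out, genes called ranged over 930 to 2830 and 3020 to 5934 in B73, 883 to 3524 and 6231 to 8898 in the mutant, and 25 to 56, 24 to 208, 36 to 183 and, averaged, 88 to 191 between genotypes. Flavonoid genes called ranged over 3 to 7, 11 to 23, 2 to 8 and 13 to 20 in the cold and 0 to 0, 0 to 4, 0 to 1 and 0 to 3 between genotypes. Changes ranged over -3.14 to -1.37 and -3.75 to -3.35 for red aleurone1, -2.52 to -1.35 and -1.13 to -0.60 for flavone synthase1 and -3.15 to -1.06 and -4.31 to -3.57 for white pollen1 in B73. In the mutant they ranged over -1.68 to -0.65 and 0.42 to 1.45, -0.42 to -0.06 and 1.70 to 2.01, and -0.53 to -0.18 and 0.36 to 0.93 in the same order. The replicate block changed no other call of the 3 genes, and replicate numbers are known only as shared labels. The planned count test and TMM scaling were not run, as the deposited values are FPKM, and limma-voom with median-of-ratios library sizes, like the omission of both libraries, was chosen after seeing the data. Only the libraries compared gives no separate average over times. white pollen1 rests on 31 reads or fewer per library in the mutant and in B73 at 48 h, and on 0 in the mutant at 24 h, so depth limits its level there.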

Other observations

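Upstream of chalcone synthase, 49 genes were listed as phenylpropanoid enzymes and 29 were tested. In B73 at 48 h 5 were higher and 6 lower than at 0 h, 37.9% against 23.2% of all tested genes (limma, adjusted p under 0.05). The falls were led by phenylalanine ammonia lyase5, of the family that deaminates phenylalanine at the entry to the pathway (log2 change -3.19, adjusted p = 0.00235, limma), and phenylalanine ammonia lyase homolog1 (-2.71, adjusted p = 0.0335, limma). The latter call was lost in 5 of 18 omissions of 1 library, namely any B73 library of 0 h and B73 48 h replicate 1 or 3 (highest adjusted p = 0.111, limma). The rises were led by Zm00001d027519, a coumarate ligase-like gene (log2 change 3.12, adjusted p = 0.00195, limma), and Zm00001d030132 of the same family (2.60, adjusted p = 0.00238, limma). In the mutant at 48 h 7 were higher and 6 lower, 44.8% against 36.5%. Zm00001d009858, described as a cinnamate 4-hydroxylase, rose in the mutant (log2 change 4.43, adjusted p = 3.28e-05, limma) and in B73 (2.47, adjusted p = 0.00355, limma). Their median mutant minus B73 difference was 0.07 at 0 h, -0.55 at 24 h and 0.51 at 48 h, beside 0.03, -0.02 and 0.04 over all tested genes.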
